A study of Rattus norvegicus with 71 samples.

Results

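The cytosolic ribosomal protein genes were taken from the deposited rat count table by symbol: every row whose symbol begins with Rpl or Rps and a digit, the stalk genes Rplp0 to Rplp2, and Rpsa, leaving out the kinases named Rps6k and symbols that end in l. The rule found 83 of 17494 rows, 48 named for the large subunit and 35 for the small subunit. Of these, 78 (46 large and 32 small) had over 1 CPM (counts scaled to a library of 1e+06) in 2 or more samples and were tested in every comparison. The rows match the label with some exceptions. Rps19bp1 is named for a protein that binds Rps19 and is not itself a ribosomal protein, and Rps4y2 is a single-exon row. The symbols Rpl37a-ps1 and Rps4x-ps1 are those of pseudogenes, and Rps9l1 covers the same exon bases as Rps9. Rps19l2 and Rpl35al1 are symbols other than the standard ones, while Rps19 and Rpl35a were not analysed here under those symbols.

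Cytosolic ribosomal proteins bind ribosomal RNA to form the large subunit, which joins amino acids, and the small subunit, which reads the messenger RNA. Each ribosome carries a single copy of most of these proteins, and their genes are among the most highly transcribed of a growing cell. Many of these messages begin with a C followed by a run of pyrimidines, the TOP motif, through which mTOR signaling controls their translation. In the newborn brain, dividing progenitors and growing neurons make large amounts of ribosomes.

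All animals were wild-type Sprague-Dawley rats at postnatal day 2, and RNA came from a thin coronal brain slice that held the hippocampal formation with neighboring cortex and subcortical tissue, made into 1 poly-A library for each of 71 offspring of 27 litters. Before breeding, exposed dams were immunized in adjuvant with antigen peptides, after which the patterns are named, and saline control dams received adjuvant and saline. The saline controls were 24 animals of 7 litters (12 male and 12 female). The maternal autoantibody (MARA-AB) exposed offspring were 8 animals of 4 litters for CRMP1+CRMP2, 25 animals of 9 litters for LDHA/B+CRMP1+STIP1, 6 animals of 3 litters for CRMP1+GDA and 8 animals of 4 litters for STIP1+NSE. Exposure was given to the dam, so littermates share it and cannot be told apart from other differences between dams. The libraries were processed in 2 batches that the sample titles show: batch 1 (titles with IgG, RNA or FcRn) comprised 16 LDHA/B+CRMP1+STIP1 animals beside 12 controls, and batch 2 (titles with MAR_C3) comprised all offspring of the remaining patterns, 9 exposed to LDHA/B+CRMP1+STIP1, and 12 other controls.

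Each library held between 24880182 and 36234952 gene counts, with a median of 28439195. The 8 forebrain neuron markers summed to between 2820 and 5340 CPM in every library, but the markers of neighboring tissue varied. The 8 include Snap25 and Stmn2, which are not particular to forebrain neurons. The 6 choroid plexus markers summed to a median of 21.8 CPM in batch 1 (2.47 to 569) and of 994 CPM in batch 2 (144 to 3280). The 5 pineal markers or the 4 measured Hox markers of hindbrain and cord exceeded a sum of 10 CPM in 11 libraries: 1 control of batch 1, 3 CRMP1+CRMP2, 2 CRMP1+GDA, 3 LDHA/B+CRMP1+STIP1 of batch 2 and 2 STIP1+NSE. In bulk tissue a lower count of these messages can mean fewer cells that make many ribosomes or less message in each cell, and the 2 cannot be told apart.

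Counting limits set what can be said of some members. Rps9 and Rps9l1 cover the same exon bases in the table and held 0 counts in all 71 libraries, so the ubiquitous gene Rps9 had no measurable level, and Rpl37a and Rpl37a-ps1, of which the second shares 99.1% of its exon bases with the first, stayed below the filter, as did Rps4x-ps1. Rpl37a had a median of only 0.244 RPKM (CPM per kilobase of exon). A further 13 members, among them Rps14, Rpl13, Rpl38 and Rpl39, are listed at more than 1 place in the genome and their exon lengths are sums over these places. Ribosomal protein genes have many near-identical processed copies, and how reads that map to several of them were counted is not given in the sources used here.

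The TOP motif lies at the transcription start, so 30-base windows around the annotated starts are shown for some of the members named in the comparisons below. They are RefSeq sequences of build GRCr8, from 10 bases before to 20 bases from the start, 5′ to 3′ on the coding strand, and the capitals mark the longest run of C and T that begins with C. The windows lie at chr3:36661930-36661959 (+ strand, Rpl12), chr7:10068096-10068125 (- strand, Rps15), chr2:221962264-221962293 (- strand, Rpl34), chr1:78083513-78083542 (- strand, Rpl28), chr16:96507-96536 (+ strand, Rps24), chr1:23500065-23500094 (+ strand, Rps12), chr1:104748894-104748923 (- strand, Rpl13a) and chr20:4933735-4933764 (+ strand, Rps18).
Rpl12: aacatccgtCTTTTCggctttcggttcgga
Rps15: acaccgCTTCCTTTTCCCagcagccgccaa
Rpl34: tCCTTTTCCTCTTCCggggacggtgcttag
Rpl28: cccctagtgtCTTTCTTTCCgtctccggcc
Rps24: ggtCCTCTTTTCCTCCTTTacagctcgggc
Rps12: gaagCCCagcagagcgcttaaataccgtca
Rpl13a: tCCTTTCCTaggcggctgccgaagatggcg
Rps18: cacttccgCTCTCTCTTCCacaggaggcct
Each of these windows holds a pyrimidine run across or near the start except that of Rps12, in which the longest is CCC. Other members named below are not shown. Among them the longest run was 13 bases in Rpl29, 4 in Rpsa, and 5 and 4 at the 2 promoters of Rps27a. Of 64 members with a single promoter in the RefSeq table, 23 (35.9%) had C at the annotated start followed by 4 further pyrimidines, read on the coding strand only, against 2.63% of all 33469 promoters in the table. The share was 16 of 39 large and 7 of 25 small subunit members. A pyrimidine run of at least 7 bases beginning with C anywhere in the window was present in 40 members (62.5%) and in 12.4% of all promoters. The letters CTTCCGG, on either strand of the 300 bases around the start, were present in 20 members (31.2%) and in 8.75% of all promoters. These are matches of letters to one annotated start per gene, and the absence of a match says nothing about a message's regulation.

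The members were among the most abundant messages of the slice per length: the tested members had a median of 485 RPKM against 12.3 RPKM over all genes that passed the filter, and 33 of the 100 highest genes were members. Levels are given as RPKM, computed from the counts and the exon lengths in the table, as the lowest, median and highest of 71 animals. In the large subunit the highest were Rplp0, the base of the stalk that recruits elongation factors (849, 1118 and 1464), Rpl41, the smallest ribosomal protein (697, 1026 and 1551), and the stalk protein Rplp1 (619, 935 and 1433). These 3 ranges overlap, so their order is within the spread of animals. The third stalk gene, Rplp2, was lower, with a median of 518 RPKM (349 to 798), also overlapping with the lower part of the range of Rplp1. The lowest were Rpl22 (62, 87.4 and 108), its paralog Rpl22l1 (48.6, 82.8 and 124), whose range covers that of Rpl22, and Rpl35al1 (22.3, 32.8 and 51.3), listed at 4 places. Rpl5 and Rpl11, which carry the 5S RNA and bind Mdm2 when ribosome assembly is disturbed, had medians of 376 and 261 RPKM, and Rpl3 and Rpl10, 2 proteins near the catalytic center, had medians of 541 and 697 RPKM.

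In the small subunit the highest were Rpsa, also known as the laminin receptor precursor (777, 1023 and 1321 RPKM), Rps2 (711, 991 and 1346), which lies at the entry of the messenger RNA channel, and Rps7 (635, 826 and 1058). Their ranges overlap as well. The lowest were Rps20 (85.7, 123 and 179), listed at 3 places, Rps19bp1 (23.4, 31.6 and 46.6) and Rps4y2 (1.84, 6.15 and 12.9), a single-exon row at rn7 chr4:181269507-181270440. Rps6, the substrate of the S6 kinases, Rps3, which lies at the channel entry, and Rps4x had medians of 516, 503 and 441 RPKM. Rps27a, whose protein is made as a fusion with ubiquitin, had a median of 349 RPKM and Rps14, listed at 2 places, of 326 RPKM.

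**Figure D1:**
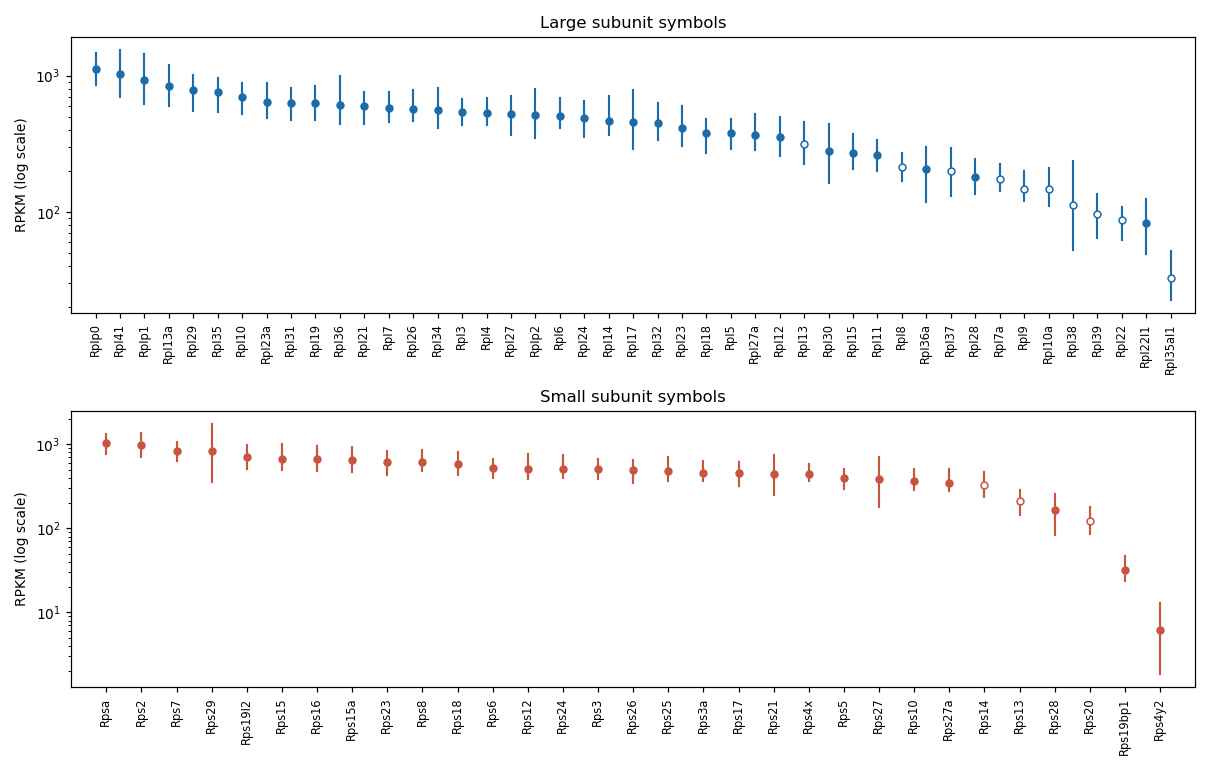
Level of each member that passed the filter, in RPKM on a log axis, ranked by median within the large and the small subunit, apart from a few members not reported by name. Points are medians and lines run from the lowest to the highest of 71 animals. Open points mark members listed at more than 1 place in the genome. Most members lie between 100 and 1000 RPKM, with Rplp0 and Rpsa highest and Rpl35al1 and Rps4y2 lowest.

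Together the 83 members took between 2.13% and 3.40% of the gene counts of an animal, with a median of 2.62%. Both subunits moved together from animal to animal: the large subunit members took 1.27% to 2.04% and the small subunit members 0.859% to 1.36%, while the ratio of large to small stayed between 1.44 and 1.54 with a median of 1.49. The ratio had a mean of 1.50 ± 0.0165 (SD, n = 12) in controls of batch 1 and of 1.48 ± 0.0199 (SD, n = 12) in controls of batch 2, and a mean of 1.49 ± 0.0164 (SD, n = 8) in CRMP1+CRMP2 animals. These ranges overlap in every group.

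**Figure D2:**
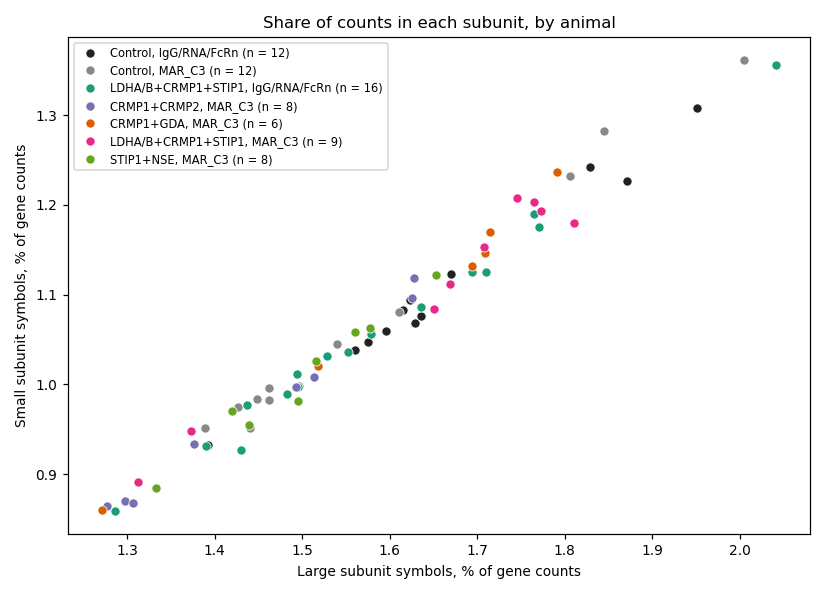
Share of gene counts in large subunit members (x axis, percent) and in small subunit members (y axis, percent) of each of 71 animals, colored by group and batch. The animals lie along 1 line, from 1.27% and 0.860% to about 2.04% and 1.36%, and the groups overlap along it.

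The total share varied between the litters of a group. In controls it ran from 2.33% to 3.26% with a median of 2.70% in batch 1, and from 2.34% to 3.37% with a median of 2.48% in batch 2. The 4 control litters of batch 2 fell into a lower and a higher pair, with litter means of 2.41% and 2.48% in 4 animals each, and of 3.03% and 3.08% in 2 animals each. CRMP1+CRMP2 animals had the lowest median of the groups, 2.40% (2.14% to 2.75%), and their litter means were 2.15%, 2.33%, 2.42% and 2.73%. LDHA/B+CRMP1+STIP1 animals had medians of 2.57% in batch 1 (2.14% to 3.40%) and 2.86% in batch 2 (2.20% to 2.99%). The medians were 2.84% in CRMP1+GDA (2.13% to 3.03%) and 2.51% in STIP1+NSE (2.22% to 2.77%). Every group overlapped with every other, and in the litters of dams FcRn4 and IgG3 littermates spanned most of the range of all animals.

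**Figure D3:**
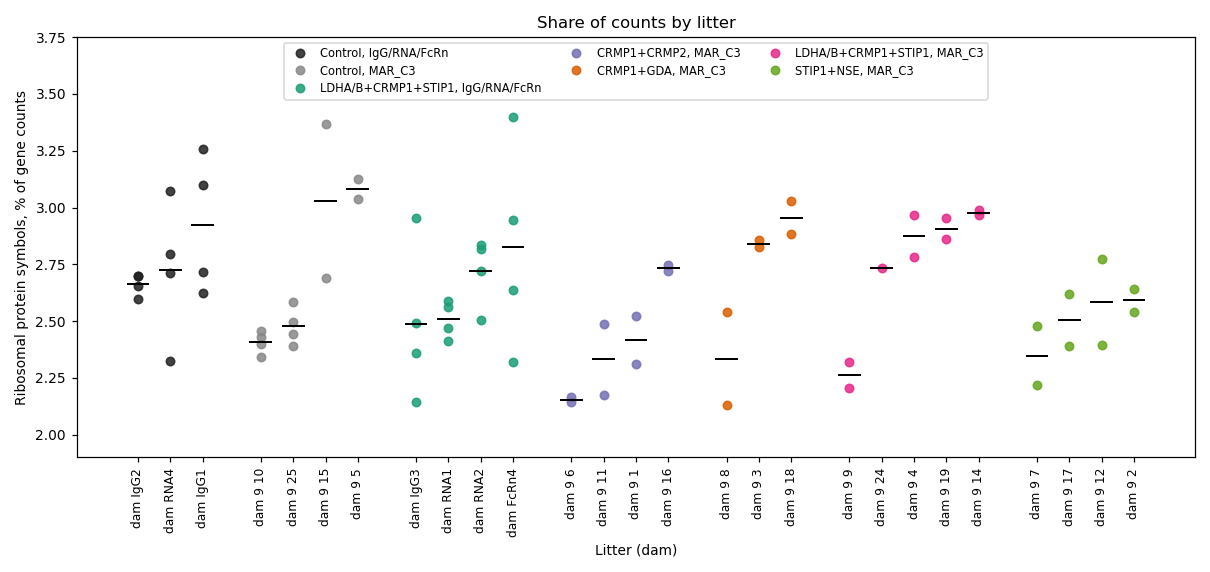
Share of gene counts in the 83 members (percent, axis from 1.9%) for each animal, arranged by litter within each group and batch. Points are animals and lines are litter means. Littermates in batch 2 are mostly close to each other, as in the CRMP1+CRMP2 litter of dam 9_6 at 2.14% and 2.17%, and litters of 1 group differ, as the batch 2 controls at litter means between 2.41% and 3.08%.

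Within batches, the members rose and fell together irrespective of subunit. After subtracting the mean of each batch from log2 CPM (prior count 2), the median correlation of a pair of members over 71 animals was 0.768, and it was 0.770 for pairs of large, 0.758 for pairs of small and 0.769 for pairs of large with small subunit members. Of the 78 members, 58 correlated at over 0.8 with the mean of the others. The points share libraries, normalization and litters, so these values describe the data set and were not tested. Rpl15 (0.957) and Rpl28 (0.961) were among those closest to the rest.

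Some members followed the rest less closely. The least like were the single-exon row Rps4y2 (0.15), Rpl17 (0.51), Rpl38 (0.54), known for its part in translating Hox messages, Rpl30 (0.56) and Rps19bp1 (0.60). Rps4y2 (0.67), Rps28 (0.37), Rpl38 (0.35), Rps21 (0.34) and Rpl30 (0.30) had the largest SD of log2 CPM within each group and batch, against a median SD of 0.179 over the members and of 0.207 over the 12816 genes that passed the filter in the 71 libraries. The spread of a typical member was thus close to that of a typical gene.

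Outside the rule, the genes most like the mean of the members included Snrpd2 of the spliceosome (0.91), the ATP synthase genes Atp5pd (0.90) and Atp5mc2 (0.88), Fau (0.90), which encodes a small subunit protein fused to a ubiquitin-like protein, the nascent chain factor Naca (0.90), the proteasome genes Psmb1 (0.89) and Psmb5 (0.88), the tubulin chaperone Tbca (0.89) and the elongation factor subunit Eef1b2 (0.88). The gene least like them was Mtor (-0.86), followed by Cspg4 (-0.84). Exon length moved with this likeness. The median correlation with the member mean was 0.376 over the 1222 genes with the shortest exons (67 to 1037 bases), which include 62 of the 78 members, and -0.514 over the 1282 genes with the longest (4831 to 26031 bases), which include 0 members and the gene Mtor. The part of exon length in these correlations was not tested.

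In CRMP1+CRMP2 exposed offspring, some members of both subunits were lower than in saline controls in a model that counts each animal as a replicate, and 0 of 78 passed in a limma model that treats litter as a random effect. In that model the median log2 fold change was -0.18, and 36 members were lower at an unadjusted p under 0.05 against 8.60% of all genes. Against all 24 controls and with animals as replicates, 18 of 78 members were lower at FDR < 0.1 (23.1%) and 0 were higher (edgeR quasi-likelihood test with 1 surrogate variable, Benjamini-Hochberg adjusted over 12691 genes), while 6.56% of all genes tested were lower and 4.83% higher. The large subunit gave 11 of 46 and the small subunit 7 of 32, and the median log2 fold change was -0.17 over the large and -0.16 over the small subunit members, against 0.01 over all genes. At an unadjusted p under 0.05, 46 members were lower and 0 were higher, against 13.1% and 11.2% of all genes. The estimate was below 0 for 77 of 78 members and for 6103 of all 12691 genes, but it was also below 0 for 76 of 78 members in STIP1+NSE, where 0 passed. The member above 0 in CRMP1+CRMP2 was Rpl22 (log2 fold change 0.08, SE 0.07, adjusted p = 0.479).

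Rpl12, at the base of the stalk (rn7 chr3:16264269-16266643, + strand), had the smallest p. Its CPM had a lowest, median and highest value of 185, 215 and 250 in the 8 exposed animals and of 208, 268 and 357 in the 24 controls. The exposed animals lay below the lowest control or in the lower part of the controls' range, and the groups overlap between 208 and 250 CPM. The log2 fold change was -0.34 (SE 0.07, adjusted p = 0.0116, edgeR).

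Rps15, in the head of the small subunit (rn7 chr7:9416003-9417442, - strand), had 243, 276 and 313 CPM in exposed animals and 278, 357 and 461 CPM in controls, and the log2 fold change was -0.31 (SE 0.07, adjusted p = 0.0173). Rpl29 (rn7 chr8:107068929-107070963, + strand) had 347, 401 and 456 CPM against 399, 508 and 641 CPM, which gave -0.24 on the log2 scale (SE 0.06, adjusted p = 0.0218). For both genes the median of the exposed animals lay at or near the lowest control. Rpl34 (-0.23, SE 0.06, adjusted p = 0.0292), Rps2 (-0.24, SE 0.07, adjusted p = 0.0345) and Rpsa (-0.23, SE 0.07, adjusted p = 0.0469) followed.

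The remaining 12 lower members had log2 fold changes between -0.28 and -0.17. They included the stalk gene Rplp2, the ubiquitin fusion gene Rps27a, and Rpl23a, Rpl21, Rps24, Rpl31, Rps12, Rpl13, Rpl28, Rps26 and Rpl36a. Against the 12 batch 2 controls alone, with sex as covariate, none of these 12 passed, and the estimates moved from -0.17 to -0.07 for Rps12 (adjusted p = 0.566), from -0.18 to -0.08 for Rps27a (adjusted p = 0.435) and from -0.20 to -0.10 for Rps24 (adjusted p = 0.397, edgeR). The median of Rps12 was 257 CPM in the exposed animals, 255 CPM in batch 2 controls and 347 CPM in batch 1 controls. The estimates of Rpl36a (from -0.28 to -0.18) and of Rpl34 (from -0.23 to -0.15) also moved by over 1.5 times. Rplp0 (-0.17, SE 0.07) and Rplp1 (-0.21, SE 0.08) had estimates of like size to Rplp2 (-0.22, SE 0.07) and did not pass the threshold (adjusted p = 0.148 and 0.127). Neither did Rpl10 (-0.15, adjusted p = 0.140), Rpl11 (-0.15, adjusted p = 0.126), Rps6 (-0.17, adjusted p = 0.116), Rpl41 (-0.23, adjusted p = 0.171), Rps14 (-0.16, adjusted p = 0.224) or Rpl22l1 (-0.24, adjusted p = 0.126), nor Rpl3, Rpl5, Rps3 and Rps4x, with estimates from -0.11 to -0.08.

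The number of lower members depended on the controls and litters used, while the median stayed below 0. When only the 12 batch 2 controls entered the fit, and sex replaced the surrogate variable, the median was -0.14 and 1 member, Rpl12, passed (-0.31, SE 0.07, adjusted p = 0.0753), with 19 lower at an unadjusted p under 0.05 against 10.5% of all genes. Without the litter of dam 9_6, the lowest litter, 0 passed (median -0.10), and without that of dam 9_16, the highest, 52 passed (median -0.22). The shares of all genes that passed in those fits are not given here, so the change in count cannot be read as particular to the members.

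Some other measures moved with the same comparison. Pineal markers had a median of 5.55 CPM in CRMP1+CRMP2 animals and of 2.94 and 4.13 CPM in controls of batch 1 and 2. Their highest sum was 247 CPM in CRMP1+CRMP2 and 6.67 CPM in controls, and it was 86.2 CPM in STIP1+NSE and 40.6 CPM in CRMP1+GDA. Choroid plexus markers had a median of 1096 CPM in CRMP1+CRMP2 animals (192 to 3280) and of 14.01 and 709 CPM in controls of batch 1 and 2, and the 5 erythroid markers had medians of 1131 CPM against 789 and 934 CPM. Forebrain neuron markers had medians of 3537 CPM against 4527 and 3547 CPM, so they were lower than in batch 1 controls and close to batch 2 controls. The 6 measured markers of dividing progenitors had medians of 238 CPM (151 to 312) against 241 and 254 CPM. Without the 3 CRMP1+CRMP2 libraries and the 1 control library with pineal or Hox markers, the median was -0.16, and 0 members passed at FDR < 0.1 with 21 lower at an unadjusted p under 0.05 against 9.26% of all genes. Exon length moved with it as well: the median log2 fold change was -0.09 over the 1208 genes with the shortest exons, of which 11.7% were lower, and 0.11 over the 1269 with the longest, of which 0.946% were lower. The part of tissue, litter and exon length in the result was not tested.

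In the other 3 patterns, 0 members differed from all 24 controls at FDR < 0.1 in edgeR, and DESeq2 and limma with litter as a random effect also gave 0. In LDHA/B+CRMP1+STIP1 the median log2 fold change was -0.02, 1 member had an unadjusted p under 0.05 (3.95% of all genes higher, 3.22% lower), and 0.0157% of all genes tested were higher and 0% lower at FDR < 0.1. In CRMP1+GDA the median was 0.03, 1 member had an unadjusted p under 0.05 (1.62% of all genes higher, 2.03% lower), and 0% of all genes were called in either direction. In STIP1+NSE the median was -0.09 with 1 member at an unadjusted p under 0.05 (1.55% of all genes higher, 1.64% lower), against 0.0474% of all genes higher and 0% lower. The 4 patterns share their controls and are given side by side for that reason. Within batch 2 and with sex as a covariate, 0 members passed for CRMP1+GDA (median 0.02) or STIP1+NSE (median -0.09).

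The members with the smallest p in these comparisons show the size of what was not called. Rpl22l1 had 27.4, 39.0 and 69.9 CPM in the 25 LDHA/B+CRMP1+STIP1 animals and 36.6, 48.7 and 64.5 CPM in controls (log2 fold change -0.17, SE 0.08, adjusted p = 0.659). The exposed range covers that of the controls. Rps4y2 had 2.46, 5.47 and 8.55 CPM in the 6 CRMP1+GDA animals and 1.72, 7.95 and 10.9 CPM in controls (-0.71, SE 0.30, adjusted p = 0.9993), the largest estimate of any member, at a level of a few CPM. Rps15 had 264, 297 and 352 CPM in the 8 STIP1+NSE animals and 278, 357 and 461 CPM in controls (-0.17, SE 0.08, adjusted p = 0.9996).

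The CRMP1+GDA estimate turned with the litter: without the litter of dam 9_8 the median was 0.13, and without that of dam 9_18 or dam 9_3 it was at most 0 (lowest -0.02).

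**Figure D4:**
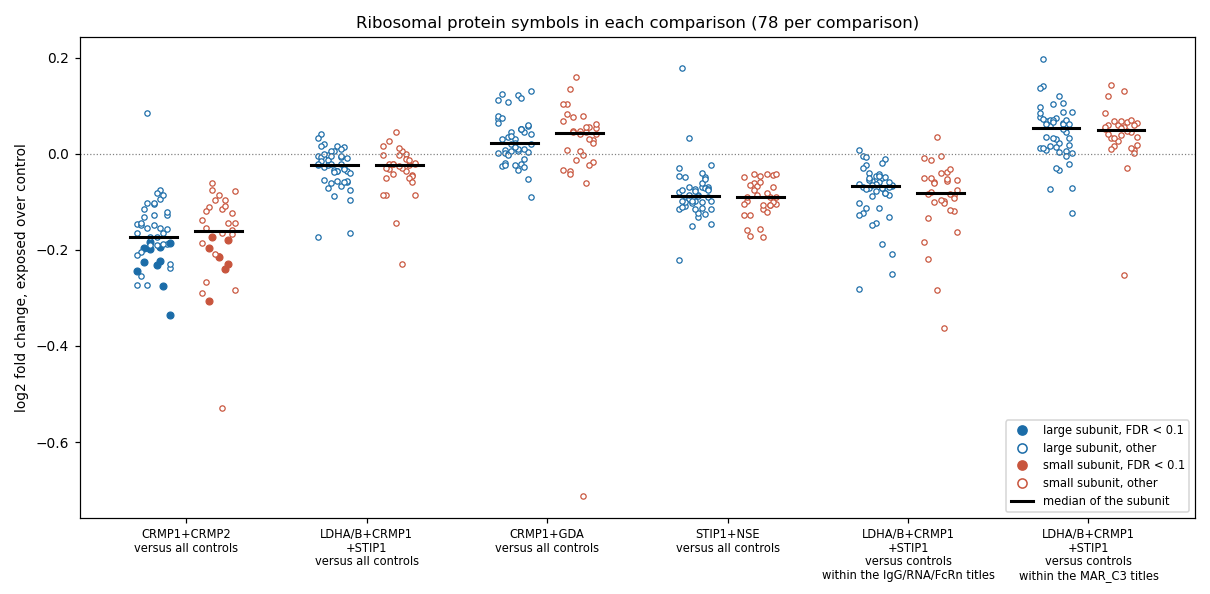
Log2 fold change of each of the 78 tested members (y axis) in the 4 patterns against all 24 controls and in LDHA/B+CRMP1+STIP1 within each batch. Points are members, blue for the large and red for the small subunit, filled at FDR < 0.1, and black lines are medians of a subunit. Filled points occur in CRMP1+CRMP2 only (18), and both subunits have nearly the same median in each comparison.

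LDHA/B+CRMP1+STIP1 is the pattern with animals in both batches. In batch 1, with 16 exposed animals and 12 controls, the median over the members was -0.07, 0 passed at FDR < 0.1 (0.0161% of all genes higher and 0% lower) and 4 were lower at an unadjusted p under 0.05 (2.21% of all genes, with 3.25% higher), Rps27, Rpl22l1, Rpl39 and Rps27a. In batch 2, with 9 exposed animals and 12 controls, the median was 0.05, 0 passed (0% of all genes in either direction) and 0 had an unadjusted p under 0.05 (3.04% of all genes higher, 2.58% lower), with Rpl36 nearest (0.20, SE 0.10, p = 0.0683 before adjustment, adjusted p = 0.881). DESeq2 gave 0 in each batch. The difference between the batches' effects was tested as an interaction: 0 of 78 members passed, as did 0.11% of all 12700 genes, and 7 members had an unadjusted p under 0.05, as did 387 of all genes. The 7 all had a higher estimate in batch 2, and the median of the difference was 0.12 over the members and 0.00 over all genes.

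Between the batches, single members differed in both directions. Among controls, 26 of 78 members were lower in batch 2 than in batch 1 (33.3%) and 2 were higher (2.56%), where 20.2% of all 12565 genes were lower and 21.3% higher (edgeR, sex as covariate, FDR < 0.1). The large subunit gave 16 lower and 1 higher of 46, and the small subunit 10 lower and 1 higher of 32. The median was -0.07. Choroid plexus markers were also higher in batch 2 controls (median 709 CPM against 14.01 CPM) and forebrain neuron markers lower (3547 CPM against 4527 CPM), and their part in the result was not tested.

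Rps12, a protein of the small subunit head (rn7 chr1:21680854-21683010, + strand), had 292, 347 and 412 CPM in the 12 controls of batch 1 and 231, 255 and 350 CPM in those of batch 2. The log2 fold change was -0.43 (SE 0.06, adjusted p = 2.1e-06). Its medians were also low in batch 2 in each exposed group, between 253 and 272 CPM, against 331 CPM in the LDHA/B+CRMP1+STIP1 animals of batch 1. The median was thus lower in batch 2 in controls and in LDHA/B+CRMP1+STIP1, the groups with animals in both batches. The controls of the batches overlap between 292 and 350 CPM, and the LDHA/B+CRMP1+STIP1 animals between 306 and 360 CPM.

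Rps27a, the ubiquitin fusion gene (rn7 chr14:103285735-103288011, - strand), had 404, 483 and 560 CPM in batch 1 controls and 323, 351 and 446 CPM in batch 2 controls (log2 fold change -0.40, SE 0.05, adjusted p = 3.26e-06). Rps24, needed to process the RNA of the small subunit (rn7 chr16:89637-94225, + strand), had 254, 289 and 350 CPM against 189, 215 and 291 CPM (-0.40, SE 0.06, adjusted p = 1.34e-05). The controls of the batches overlap in both genes. Rps29 (-0.54, SE 0.12), Rpl38 (-0.47, SE 0.16) and Rpl17 (-0.47, SE 0.11) had the lowest estimates of all. The 2 higher members were Rpl13a (0.18, SE 0.07, adjusted p = 0.0371), which also acts outside the ribosome after interferon stimulation, and Rps18 (0.17, SE 0.08, adjusted p = 0.083).

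The LDHA/B+CRMP1+STIP1 animals, which share no animal with the controls, gave a second view of the batches, a comparison added after the first had been seen. In them 8 members were lower in batch 2 (10.3%) and 17 higher (21.8%), where 19.9% of all genes were lower and 21.4% higher, and the median was 0.05. All 8 lower members were among the 26 lower in controls (30.8% of the 26) and both members higher in controls were among the 17 (11.8%), with 0 members called in opposite directions. The same overlap over all genes is not given here, so it cannot be read as particular to the members. The 8 were Rps12, Rps27a, Rps24, Rpl34, Rpl36a, Rpl26, Rps29 and Rpl17. Rps24 had 244, 285 and 351 CPM in the 16 animals of batch 1 and 189, 223 and 269 CPM in the 9 of batch 2 (-0.38, SE 0.07, adjusted p = 0.00014), close to its estimate in controls. Rpl13a rose from 393, 515 and 637 CPM to 476, 670 and 696 CPM (0.27, SE 0.07, adjusted p = 0.00612) and Rps18 by 0.30 (SE 0.09, adjusted p = 0.014).

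**Figure D5:**
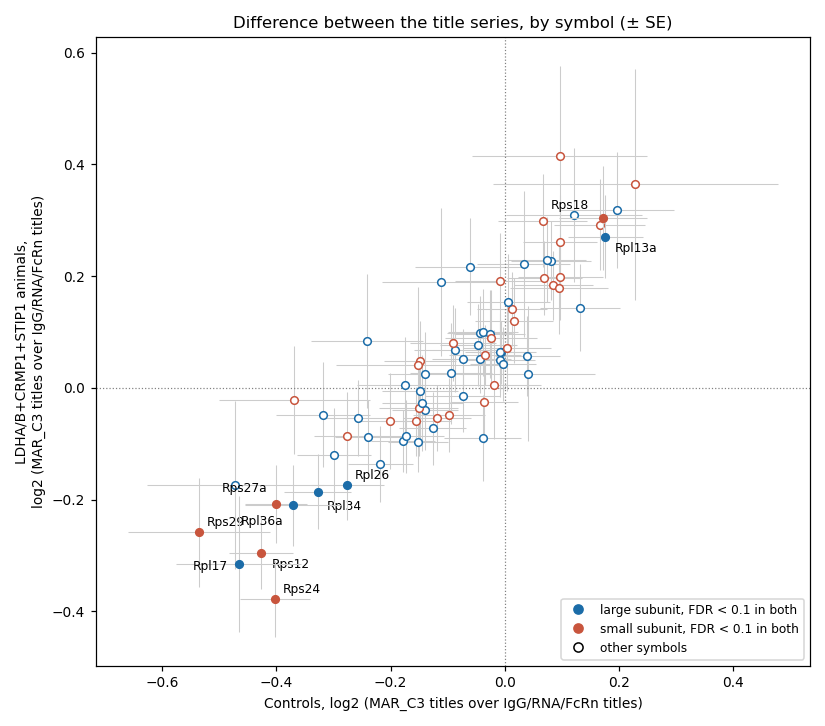
Log2 fold change of batch 2 over batch 1 for each of 78 members in controls (x axis) and in LDHA/B+CRMP1+STIP1 animals (y axis), with standard errors. Filled points passed FDR < 0.1 in both, 8 lower and 2 higher. Rps24, Rps12 and Rpl17 lie lowest on the y axis and Rps18 and Rpl13a are the filled points above 0.

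With the litter as a random effect, 14 members were lower between the control batches and 0 higher, and 5 lower and 11 higher in LDHA/B+CRMP1+STIP1. Without it, 20.2% of all genes were lower and 21.3% higher in controls, and 19.9% and 21.4% in LDHA/B+CRMP1+STIP1. The shares of all genes in the limma fits with litter are not given here, so these counts cannot be read as particular to the members. Rps12 (-0.41, SE 0.07, adjusted p = 0.00035) and Rps27a (-0.38, SE 0.07, adjusted p = 0.000518) had the smallest p among the members in the controls in that limma fit too.

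Genes that work with the ribosome were read from lists, against 6.56% of all genes lower and 4.83% higher in CRMP1+CRMP2. Of ribosomal proteins that the symbols miss, Fau was lower in CRMP1+CRMP2 (-0.22, SE 0.07, adjusted p = 0.0736), and Rack1, a scaffold on the small subunit head, had -0.11 (SE 0.06, adjusted p = 0.242). Of 15 tested elongation factors and other genes with TOP messages, 0 were lower or higher, with a median of -0.08 and no estimate below -0.12. Of 27 genes of ribosome assembly and ribosomal RNA synthesis 1 was lower, Nop10 of the pseudouridylation complex (-0.21, SE 0.07, adjusted p = 0.0823), and the median was -0.01. Of 12 genes of mTOR and Myc control 1 was higher, the translation repressor Eif4ebp2 (0.19, SE 0.06, adjusted p = 0.0692), and the median was 0.08. Mtor itself had 0.08 (SE 0.06, adjusted p = 0.422) and Myc 0.02 (SE 0.06, adjusted p = 0.860).

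Between the control batches, where 20.2% of all genes were lower in batch 2 and 21.3% higher, the same lists gave other counts. Of the assembly genes 15 of 27 were lower in batch 2 and 1, Polr1c, higher, with a median of -0.16, among them Nop58 (-0.30, SE 0.07), Bop1 (-0.30, SE 0.06), Npm1 (-0.26, SE 0.05) and Ncl (-0.19, SE 0.03). Of the genes with TOP messages 6 of 15 were lower and 0 higher, with a median of -0.04, among them Tpt1 (-0.26, SE 0.07) and Nap1l1 (-0.26, SE 0.04). Of the mTOR and Myc list 4 of 12 were lower, Myc (-0.39, SE 0.07), Eif4ebp2 (-0.32, SE 0.06), Rps6kb1 (-0.18, SE 0.05) and Akt1 (-0.16, SE 0.04). Fau (-0.09, SE 0.06) and Rack1 (-0.08, SE 0.05) did not pass.

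In LDHA/B+CRMP1+STIP1, CRMP1+GDA and STIP1+NSE, 0 genes of any of these lists passed FDR < 0.1. Of the 4 listed symbols ending in l that the rule left out, 2 passed the expression filter, and in CRMP1+CRMP2 Rpl36al had -0.18 (SE 0.08, adjusted p = 0.176) and Rps27l 0.05 (SE 0.11, adjusted p = 0.795).

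Members with and without the start motif shown above had medians close to each other. In CRMP1+CRMP2 the median log2 fold change was -0.17 over the 22 tested members with C and 4 pyrimidines at the annotated start and -0.17 over the 39 without. Between the control batches it was -0.09 over the 22 and -0.07 over the 39, in CRMP1+GDA 0.05 and 0.02, and in STIP1+NSE -0.07 and -0.10.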

How the data were processed

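The deposited table holds gene counts that the authors made from paired-end reads of poly-A libraries by alignment to rat genome rn7 with STAR 2.5.4b and counting with featureCounts, whose options are not given in the sources used here. A further deposited column gives exon bases per gene, as the authors' counting tool wrote it. Among deposited counts from 1 to 9, 74.5% were even. Libraries held 24880182 to 36234952 counts. Groups, litters and sex come from the labels and the batch from the titles.

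Fold changes were computed from the counts in R 4.3.3 with edgeR 4.0.16 (TMM, robust quasi-likelihood test, genes over 1 CPM in at least 2 samples of the fit, Benjamini-Hochberg adjustment over all genes tested, FDR < 0.1). Fits of a pattern against the 24 controls had 1 surrogate variable (sva 3.50.0), and comparisons within or between batches had sex as covariate. Animals are the replicates, although littermates share a dam. CPM levels used total counts scaled by the TMM factors, and RPKM divided these by the table's exon lengths. The filter used CPM without the TMM factors. Alternatives were DESeq2 1.42.0, other scalings, batch and sex as covariates, no filter, litter as a random effect (limma 3.58.1, voom) and each litter left out. The script was tested on simulated data.

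Members, lists and comparisons were chosen with earlier results of these data known. Genes named were the 3 members with the smallest p in a comparison, the 3 highest and 3 lowest per subunit, the 5 most variable and 5 least correlated members, non-members among the 10 most like the member mean, the left-out symbols and 17 symbols chosen for their role, of which Rps19 was not analysed here. Others were named after their values were seen: the remaining members called in a comparison, and genes of the related lists. Start windows and promoters are from RefSeq (GRCr8), with 64 members matched to 1 promoter, 1 to more than 1 and 18 to none. Protein sequences were not used here, and a few genes are not reported by name.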

Additional observations from a re-analysis of the deposited data

Results flagged for a closer look

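The total share of counts, the large to small ratio and the CPM of named members were searched for outlying animals. This was done for 68 combinations of a measure and a group of 4 to 10 animals. The distance of the highest or lowest animal from its neighbor was compared with the range of the group (Dixon's ratio, 95% limit). Chance alone marks about 1 in 20 such groups, and 5 of the 68 passed, each for a named member. In CRMP1+GDA, the same animal, of dam 9_8, had the lowest Rpl13a, at 464 CPM against 593 to 664 CPM in the other 5 (ratio 0.644), and the lowest Rpl39, at 60.9 CPM against 98.9 to 113 CPM (ratio 0.723). In LDHA/B+CRMP1+STIP1 of batch 2, the highest animal, of dam 9_14, had 360 CPM of Rps12 against 228 to 291 CPM in the other 8 (ratio 0.523), and the same animal was highest for Rps27a, with 499.5 CPM against 326 to 413 CPM (ratio 0.502). In STIP1+NSE, the highest Rps27a was 392 CPM against 319 to 352 CPM in the other 7 (ratio 0.552).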

How the results depend on the processing

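The count of members lower in CRMP1+CRMP2 was the least stable result. It was 18 as reported, 1 with batch 2 controls and sex as covariate, and 0 with the litter as a random effect (correlation within litters 0.346, 36 members lower at an unadjusted p under 0.05, as were 8.60% of all genes). With each exposed litter left out it ran from 0 (dam 9_6) to 52 (dam 9_16), with 9 and 5 for dams 9_1 and 9_11. Chosen after seeing the data were fits without the libraries with pineal or Hox markers (0), with no covariate (29) and with each control litter left out. The last gave 6 (dams 9_15 and IgG2), 9 (dams 9_5, IgG1 and RNA4), 35 (dam 9_25) and 48 (dam 9_10). The median stayed between -0.22 and -0.10 in all of these. The other scalings, the fit without a filter, the surrogate variable from other genes and DESeq2 gave 13 to 25. With the litter as a random effect the control batches differed in 14 members, down from 28 (19 to 33 with 1 litter left out), and the LDHA/B+CRMP1+STIP1 animals in 16, down from 25 (18 to 36). For the alternative fits in this section the share of all genes at FDR < 0.1 is not given, so their counts cannot be read as particular to the members. The counts of 0 in the other comparisons stayed 0 under every alternative and left-out litter. Single named members kept their direction under every alternative run. Of their values, 304 kept their side of the threshold and 11, all for Rpl12, Rps15 or Rpl29 in CRMP1+CRMP2, no longer passed it. No paired analysis was possible because the replicate numbers only name animals within a group. At these depths most members have large counts, so the spread between animals and litters, not counting error, limits these results, and Rps4y2 is the only tested member at a few CPM. The cause of the differences between fits was not tested.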
